A study of Oryza sativa with 12 samples.

Results

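The interaction contrast described here sets the response of rice leaves to raised OsbZIP62 against their response to its loss. It is (OE1 minus WT) minus (C54 minus NIP) on the log2 scale, with OE1 minus WT as its OE1 arm and C54 minus NIP as its C54 arm, and it was estimated from the read counts of all 12 libraries of the series in 1 fit with 4 group means. OE1 is a line of the japonica cultivar Kitaake that overexpresses OsbZIP62 fused to the VP64 activation domain, and WT is untransformed Kitaake. C54 is a homozygous CRISPR mutant line of OsbZIP62 in the cultivar Nipponbare, and NIP is untransformed Nipponbare. Each group had 3 biological replicates of 30 plants each, and the RNA came from leaves of unstressed plants at the four-leaf stage. A gene with a positive contrast stood higher in OE1 relative to WT than in C54 relative to NIP. Of 21878 genes tested, 771 had a contrast called higher (3.52%) and 613 had one called lower (2.80%), at a Benjamini-Hochberg adjusted p under 0.05 in edgeR's quasi-likelihood test and a log2 contrast beyond 1 in size.

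Because the contrast is a difference of differences, its sign is also that of OE1 plus NIP against WT plus C54. Construct, cultivar and line change together between the arms. The fusion adds an activation domain to the native protein, the promoter that drives it is not given in the text used here, each construct is represented by 1 line, and any handling of the Kitaake and Nipponbare plants apart from each other would fall on the same split. These cannot be told apart in the interaction.

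OsbZIP62 is a basic leucine zipper (bZIP) transcription factor. Proteins of this family bind DNA as dimers through a basic region, and many plant members recognise G-box or ABA-responsive elements in promoters. Abscisic acid (ABA) accumulates in drying leaves. In the core of its signalling, receptors that hold ABA inhibit PP2C phosphatases, SnRK2 kinases become active, and these phosphorylate bZIP factors that turn on genes for late embryogenesis abundant (LEA) proteins, dehydrins, osmolyte synthesis and antioxidant enzymes.

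The sequence that defines the loss arm is the guide of the CRISPR construct, which directs Cas9 to OsbZIP62 (LOC_Os07g48660, chromosome 7). It is shown because the loss arm rests on the edit at this site. Capitals mark the whole of the 19 bases shared by both strands of the mutant construct's primer pair in the study's primer list. This stretch was read as the guide, so its ends are inferred, and its place within the gene is not analysed here.
OsbZIP62 guide: GCGTGTATAACCGCGTGGA

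OsbZIP62 itself had 1174, 1038 and 810 CPM in OE1 against 0.453, 0.311 and 0.0996 CPM in WT, and 0.995, 0.596 and 0.340 CPM in C54 against 0.166, 0.852 and 0.0684 CPM in NIP. CPM is the count scaled to a common library size, after TMM normalization (edgeR's cpm). The OE1 libraries stood apart from all 9 others, which were at or under 0.995 CPM, and C54 and NIP overlapped. Its contrast was 11.11 (SE 1.10, edgeR adjusted p = 0.00179), with 11.92 in the OE1 arm and 0.81 in the C54 arm. Whether reads of the fusion construct could map to the whole gene model was not tested, and because a guide-directed edit need not change the amount of transcript, the C54 label was not checked by this value.

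The libraries held 9224755 to 19759728 counts, and 22922 to 26139 of 35679 listed genes had a count. On the first principal component of log2 CPM, which held 44.5% of the variance, the WT libraries lay together at -106 to -111, while OE1 ran from -67.9 to 91.6 and NIP from -23 to 146. OE1-2 and NIP-3 were the libraries of their groups nearest to WT on that axis. The loci of the list of cell division and cytoskeleton genes, taken as markers of young tissue (39 loci), summed to 464, 313 and 782 CPM in OE1 against 300, 329 and 271 CPM in WT, and to 1000, 794 and 1137 CPM in C54 against 1130, 587 and 418 CPM in NIP. The photosynthesis list (21 loci) summed to 9681, 4766 and 11168 CPM in OE1 against 3789, 3738 and 3380 CPM in WT, and to 9578, 16279 and 8419 CPM in C54 against 21532, 38000 and 14763 CPM in NIP. In any 1 library 0 to 6 of the 39 loci and 0 to 1 of the 21 loci had no count. Both sums were lowest in OE1-2 among the OE1 libraries and in NIP-3 among the NIP libraries, and the part of tissue makeup in the results was not tested. Both lists hold only loci that the study had listed as changed on these same libraries. Differences between groups follow in part from that choice, so the sums cannot check leaf identity or the share of young tissue. In bulk leaves, a change in the amount of a tissue and a change in RNA per cell cannot be told apart.

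Most called genes moved in opposite directions in the arms, which the form of the contrast favours. Among the 771 genes called higher, 716 had OE1 above WT and C54 below NIP, 52 had both arms up and 3 had both arms down. The median log2 contrast was 2.90, the range ran between 1.00 and 21.9, and the medians of the arms were 1.97 for OE1 over WT and -1.18 for C54 over NIP. Among the 613 genes called lower, 554 had OE1 below WT and C54 above NIP, and the others split into 31 with both arms up and 28 with both arms down. Here the median contrast was -1.84, with -0.99 in the OE1 arm and 0.76 in the C54 arm. Over all 21878 genes the arms had opposite signs in 12041 genes (55.0%).

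**Figure D1:**
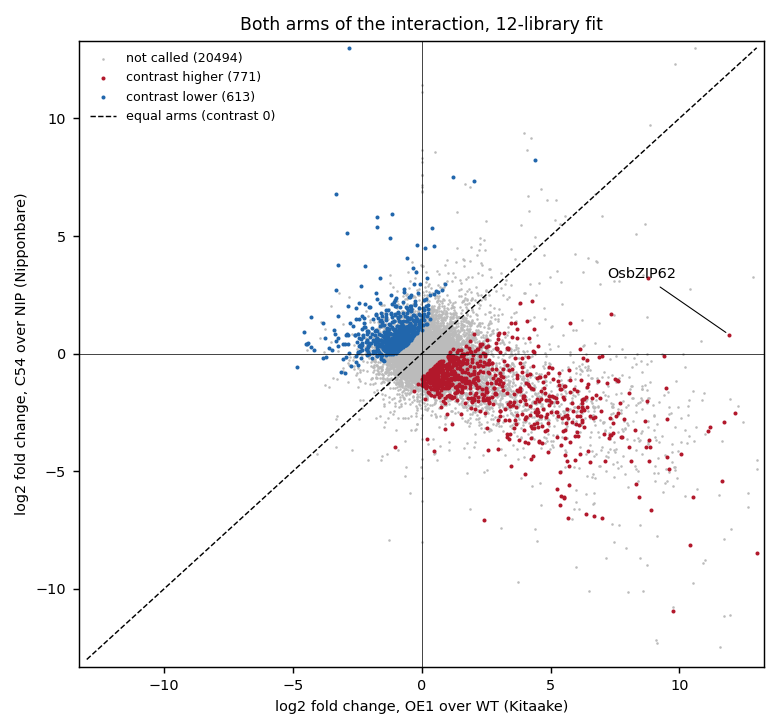
Log2 fold change of OE1 over WT (horizontal) against that of C54 over NIP (vertical) for the genes tested in the 12-library fit, with genes called higher and lower in the interaction in colour and 6 genes beyond a log2 change of 13 drawn at the edge. The 771 genes called higher lie to the lower right and the 613 called lower to the upper left, the sides on which the contrast is positive and negative by construction.

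The share of the contrast that came from each arm varied widely. Of the genes called higher, the OE1 arm held a median of 61.1% of the contrast (quartiles 46.0 and 75.1%). In 194 of them the OE1 arm held over 75%, in 518 it held 25 to 75%, and in 59 it held less than 25%. For genes called lower the median was 56.8% (quartiles 37.3 and 75.1%), with 154, 357 and 102 genes in the same 3 classes. In the same fit and under the same rule, 490 genes were called higher (2.24%) and 376 lower (1.72%) in OE1 over WT, and 365 genes higher (1.67%) and 156 lower (0.713%) in C54 over NIP. The arms use the same libraries as the interaction, so these counts are given beside it as values only.

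A stricter reading asks that the libraries of both arms do not overlap. For a positive contrast this means that each OE1 library lies above each WT library and each C54 library below each NIP library. This held in 290 of 21878 genes (1.33%), and the reverse in 485 (2.22%). Among called genes it held in 187 of 771 higher (24.3%) and in 288 of 613 lower (47.0%). The genes called lower were thus more often separated library by library, although their median contrast was smaller. That difference between the classes was not tested.

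The count of genes called higher depended on single libraries, and it increased without OE1-2 or NIP-3 and decreased without any other. OE1-2 was the lowest OE1 library in 594 of these 771 genes, and NIP-3 was the lowest NIP library in 559. Without OE1-2 the counts were 1879 higher and 871 lower, without NIP-3 they were 2382 and 1010, and without both they were 3291 and 1235. Leaving out any other library gave fewer calls, between 130 (without C54-1) and 515 (without C54-2) higher and between 209 (without C54-1) and 481 (without C54-2) lower. Of the genes called with all 12 libraries, 106 of the higher and 186 of the lower genes were called in each of the 12 fits that left out 1 library. At an unadjusted p under 0.05 and the same fold, 2935 genes were higher and 1341 lower. DESeq2 called 2097 higher and 971 lower on the same 12 libraries.

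**Figure D2:**
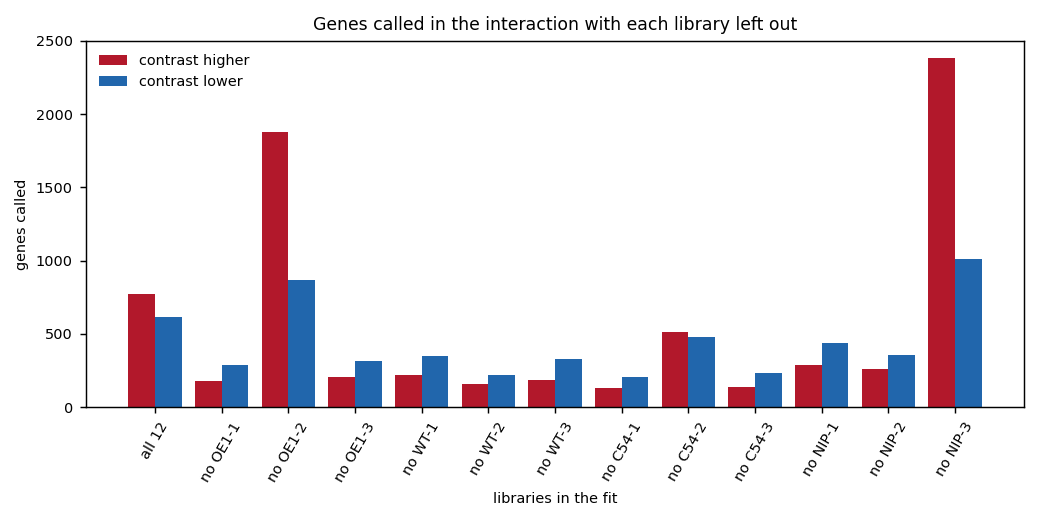
Number of genes called higher and lower (vertical, genes) in the fit of all 12 libraries and in fits that each leave out 1 library (horizontal). Leaving out OE1-2 or NIP-3 gave 1879 and 2382 genes higher against 771 with all libraries, and the other 10 fits gave 130 to 515.

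Gene names came from the loci of the study's lists of changed genes, which could be paired with 2800 of the tested identifiers. Those loci had been listed as changed in 1 arm or the other on these same libraries, so 597 of the 2800 were called higher (21.3%) and 292 lower (10.4%), and it is against these shares that the lists below are read. Of the called genes, 174 higher and 321 lower had no paired locus and enter the counts without a name. An annotated function was given for 486 of the higher and 230 of the lower genes.

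Among the named genes with the smallest p in the positive direction, some rose in OE1 with little movement in C54. SQS (LOC_Os03g59040, chromosome 3) encodes squalene synthase, which joins farnesyl diphosphate into squalene, the precursor of sterols. It had 52.95, 52.6 and 46.7 CPM in OE1 against 7.82, 6.09 and 6.02 CPM in WT, and 22.2, 22.1 and 24.7 CPM in C54 against 17.1, 21.4 and 20.5 CPM in NIP. OE1 lay above WT and C54 slightly above NIP in each library, and the contrast was 2.71 (SE 0.21, edgeR adjusted p = 0.000459), with 2.94 in the OE1 arm and 0.23 in the C54 arm. A UDP-glucosyltransferase (LOC_Os05g42070), of the enzymes that attach glucose to small molecules, had 52.7, 56 and 47.1 CPM in OE1 against 3.74, 4.60 and 4.33 CPM in WT, and 4.08, 4.06 and 7.26 CPM in C54 against 4.38, 8.77 and 4.31 CPM in NIP. Its contrast of 3.79 (SE 0.43, edgeR adjusted p = 0.00233) lay in the OE1 arm (3.61 in the OE1 arm and -0.18 in the C54 arm). P5CS (LOC_Os05g38150), delta-1-pyrroline-5-carboxylate synthase, makes the first committed step to the osmolyte proline. It had 87.3, 97.2 and 88.7 CPM in OE1 against 29.1, 26.6 and 32.2 CPM in WT, and 56.1, 56.9 and 60.7 CPM in C54 against 51.6, 70.7 and 52.9 CPM in NIP, and the contrast was 1.65 (SE 0.20, edgeR adjusted p = 0.00267). Here the C54 arm was -0.01, with C54 and NIP overlapping. A Ninja-family gene (LOC_Os03g11550), whose Arabidopsis relatives repress hormone-responsive transcription, had 252, 292 and 218 CPM in OE1 against 57.7, 61.5 and 52.8 CPM in WT, and 105, 110 and 132 CPM in C54 against 78.2, 118 and 108 CPM in NIP, with a contrast of 1.96 (SE 0.25, edgeR adjusted p = 0.00312).

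For other positive genes the fit placed part of the contrast in each arm. A jasmonate O-methyltransferase gene (LOC_Os05g01140) encodes the enzyme type that forms methyl jasmonate. It had 22.8, 35.2 and 25.1 CPM in OE1 against 2.15, 2.55 and 1.69 CPM in WT, and 27.9, 33.95 and 35.3 CPM in C54 against 58.4, 35.9 and 104 CPM in NIP, so the arms did not overlap, although NIP-2 lay only just above C54-3. Its contrast was 4.73 (SE 0.50, edgeR adjusted p = 0.00189), with 3.70 in the OE1 arm and -1.03 in the C54 arm. LEA1 (LOC_Os03g20680), a late embryogenesis abundant protein of the kind that accumulates in drying tissue, had 35.1, 36.7 and 35.4 CPM in OE1 against 0.906, 1.18 and 0.996 CPM in WT, and 2.198, 3.30 and 4.25 CPM in C54 against 3.55, 13.2 and 3.69 CPM in NIP. The OE1 values lay in a narrow band far above WT, and C54 and NIP overlapped, with NIP-2 apart at the top. The contrast was 6.16 (SE 0.68, edgeR adjusted p = 0.00233). OsGA3ox2 (LOC_Os01g08220, the D18 gene), which makes the last step to bioactive gibberellin, had 8.03, 8.31 and 4.71 CPM in OE1 against 0, 0.249 and 0.199 CPM in WT, and 0.628, 0.541 and 0.340 CPM in C54 against 1.39, 0.913 and 1.51 CPM in NIP. All libraries were separated in both arms, at levels of 1.51 CPM or less outside OE1, and the contrast was 6.63 (SE 0.74, edgeR adjusted p = 0.00233).

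Genes of primary metabolism stood among them as well. CP12 (LOC_Os03g19380) encodes a small chloroplast protein that holds Calvin cycle enzymes in an inactive complex in the dark. It had 214, 199 and 238 CPM in OE1 against 78.7, 93.02 and 82.6 CPM in WT, and 110, 117 and 133 CPM in C54 against 185, 152 and 140 CPM in NIP, with no overlap in either arm. Its contrast of 1.76 (SE 0.20, edgeR adjusted p = 0.00233) lay below the median of the genes called higher, and it was measured with a small error. A mandelate racemase family gene (LOC_Os01g04630) had 14.7, 19.6 and 26.6 CPM in OE1 against 6.91, 6.65 and 6.02 CPM in WT, and 21.4, 29.1 and 20.98 CPM in C54 against 50.5, 51.3 and 44.3 CPM in NIP. The libraries did not overlap in either arm, and the contrast was 2.67 (SE 0.30, edgeR adjusted p = 0.00233), with 1.64 in the OE1 arm and -1.03 in the C54 arm. Each of the 10 genes named for the smallest p in this direction, OsbZIP62 included, was called in all 12 fits that left out 1 library.

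The largest positive contrasts among genes with no overlap and at least 5 CPM in a group behaved differently. OsSub57 (LOC_Os09g26920), a subtilisin-like serine protease, had 6.05, 2.18 and 7.07 CPM in OE1 against 0.227, 0.186 and 0 CPM in WT, and 1.10, 2.49 and 1.53 CPM in C54 against 7.49, 4.63 and 2.53 CPM in NIP, with a contrast of 6.87 (SE 1.05, edgeR adjusted p = 0.00680), and was called in all 12 fits, as was OsGA3ox2. The other 4 were not. Another subtilisin-like protease gene (LOC_Os05g36010) had 26.7, 3.73 and 43.6 CPM in OE1 against 1.81, 0.932 and 0.747 CPM in WT, and 5.13, 9.64 and 4.82 CPM in C54 against 75.95, 18.4 and 10.1 CPM in NIP. OE1-2 was the lowest OE1 library and NIP-3 the lowest NIP library, and the contrast of 6.90 (SE 1.32, edgeR adjusted p = 0.0171) was lost without WT-2, WT-3, C54-1 or C54-3 (edgeR adjusted p up to 0.0598). A cycloartenol synthase gene (LOC_Os06g28820), of the enzyme that closes the sterol ring system, had 9.79, 0.746 and 20.2 CPM in OE1 against 0.113, 0.249 and 0.0498 CPM in WT, and 6.70, 15.5 and 5.73 CPM in C54 against 24.2, 21.1 and 16.1 CPM in NIP. Its contrast was 7.31 (SE 1.41, edgeR adjusted p = 0.0173), and the call was lost without the same 4 libraries, at an edgeR adjusted p up to 0.0588.

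A gene similar to the receptor-like kinase ACR4 (LOC_Os03g43670), which in Arabidopsis acts in epidermal cell fate, had 2.199, 0.266 and 7.53 CPM in OE1 against 0, 0.0621 and 0.0996 CPM in WT, and 2.25, 3.90 and 2.67 CPM in C54 against 10.5, 6.51 and 5.88 CPM in NIP. WT held 3 counts in all, so OE1 over WT was 51.0-fold with a 95% counting interval of 17.2 to 249 (counting error only). Its contrast was 6.91 (SE 1.40, edgeR adjusted p = 0.0214) and was not called without WT-1, WT-2, WT-3, C54-1 or C54-3 (edgeR adjusted p up to 0.0693). An ABC transporter gene (LOC_Os04g54930) had 1.92, 0.959 and 6.61 CPM in OE1 against 0.340, 0.249 and 0.0498 CPM in WT, and 0.0524, 0.271 and 0.113 CPM in C54 against 14.4, 0.913 and 0.410 CPM in NIP. The single NIP-1 value set most of the NIP mean, and the contrast of 9.12 (SE 1.99, edgeR adjusted p = 0.0285) was lost without WT-1, WT-2, WT-3, OE1-1, OE1-3, C54-1 or C54-3, with an edgeR adjusted p up to 0.0876.

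**Figure D3:**
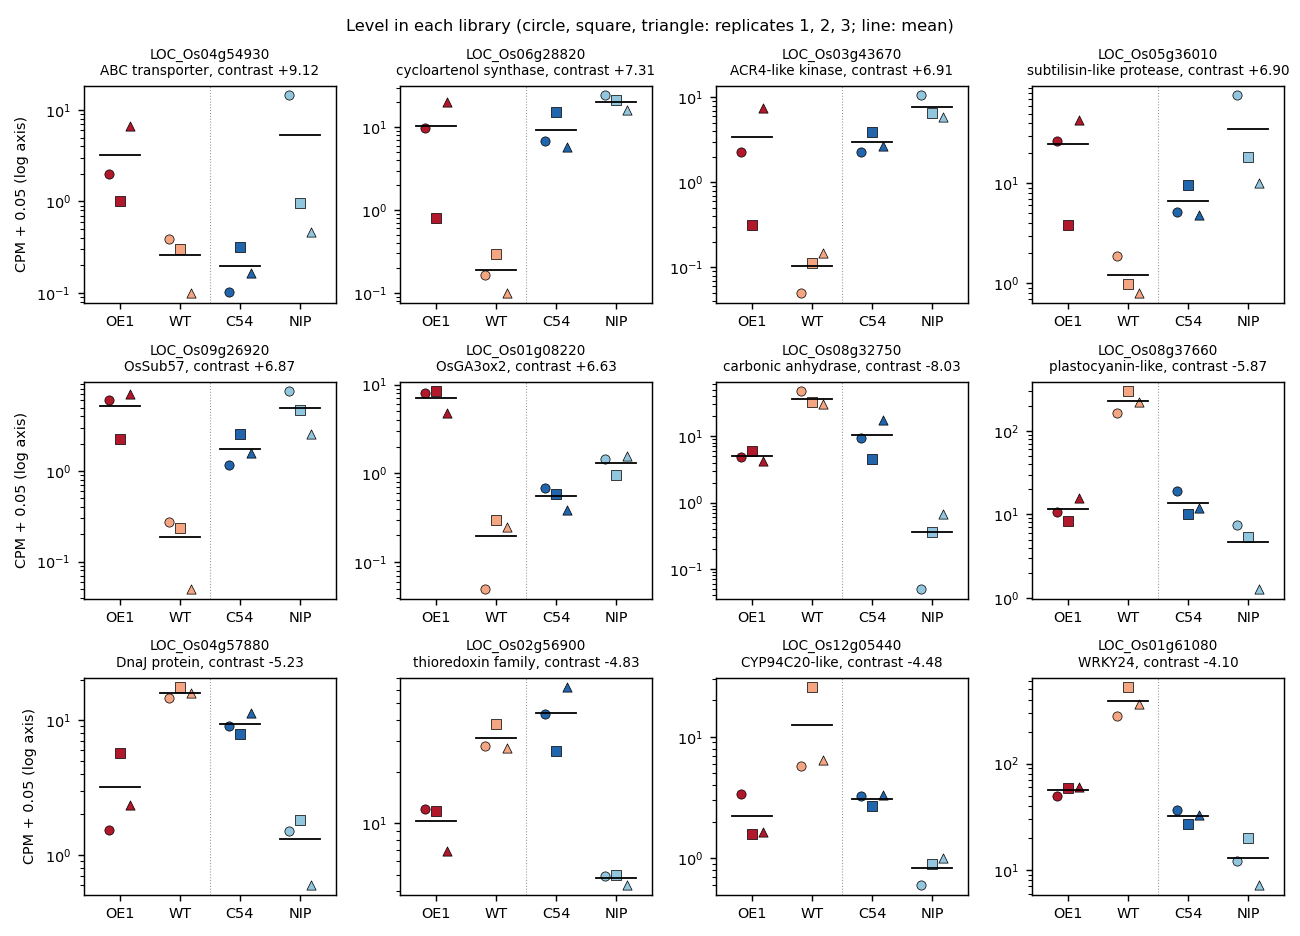
Level in each library (vertical, CPM plus 0.05 on a log axis) of the 6 genes with the largest contrast in each direction among genes with no overlap in both arms, in OE1, WT, C54 and NIP (horizontal); circles, squares and triangles are replicates 1, 2 and 3 and lines are means. OE1-2, the square, is the lowest OE1 point in 5 of the 6 genes with a positive contrast, whereas the 6 genes with a negative contrast have their lowest mean in NIP.

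Genes with a negative contrast were lower in OE1 than in WT, higher in C54 than in NIP, or both. A thioredoxin family gene (LOC_Os02g56900), whose products reduce disulfide bonds, had 11.99, 11.8 and 6.87 CPM in OE1 against 28.2, 37.8 and 27.5 CPM in WT, and 43.4, 26.4 and 61.9 CPM in C54 against 4.88, 4.93 and 4.31 CPM in NIP. All libraries were separated in both arms, and the contrast was -4.83 (SE 0.44, edgeR adjusted p = 0.00179), with -1.61 in the OE1 arm and 3.22 in the C54 arm. Hsp82 (LOC_Os08g39140), a chaperone of the Hsp90 type, had 9.84, 15.8 and 11.1 CPM in OE1 against 64.01, 43.99 and 38.9 CPM in WT, and 68.9, 35.03 and 68.6 CPM in C54 against 13.97, 16.9 and 13.2 CPM in NIP. Both arms held about the same part of its contrast of -3.97 (SE 0.42, edgeR adjusted p = 0.00189) (-1.999 in the OE1 arm and 1.97 in the C54 arm). A DnaJ gene (LOC_Os04g57880), of the co-chaperones that deliver proteins to Hsp70, had 1.49, 5.65 and 2.31 CPM in OE1 against 14.5, 17.5 and 15.9 CPM in WT, and 8.95, 7.91 and 11.3 CPM in C54 against 1.44, 1.77 and 0.547 CPM in NIP, with a contrast of -5.23 (SE 0.68, edgeR adjusted p = 0.00381). Derlin-1 (LOC_Os05g09550), a membrane protein through which misfolded proteins leave the endoplasmic reticulum, had 4.62, 5.17 and 4.61 CPM in OE1 against 11.3, 11.9 and 8.46 CPM in WT, and 8.38, 5.58 and 9.07 CPM in C54 against 2.05, 2.07 and 1.23 CPM in NIP. Its contrast was -3.23 (SE 0.37, edgeR adjusted p = 0.00233), and the libraries did not overlap in either arm.

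Chitinases, which cut the chitin of fungal walls, were represented by a pair among the 10 smallest p of this direction. A gene similar to hevamine A (LOC_Os01g64110) had 25.6, 23.2 and 28.1 CPM in OE1 against 40.1, 58.7 and 44.1 CPM in WT, and 56.95, 58.2 and 67.3 CPM in C54 against 25.6, 23.7 and 19.4 CPM in NIP, with a contrast of -2.30 (SE 0.24, edgeR adjusted p = 0.00189). The gene for chitinase 2 (LOC_Os10g28050) had 27.2, 33.99 and 36.8 CPM in OE1 against 52.3, 58.97 and 64.3 CPM in WT, and 99.7, 86.4 and 138 CPM in C54 against 32.5, 38.6 and 35.7 CPM in NIP, with a contrast of -2.44 (SE 0.26, edgeR adjusted p = 0.00223). In both genes OE1 and NIP lay at similar levels and C54 had the highest mean. The C54 arm was the larger one, at 1.41 for the hevamine-like gene and 1.60 for chitinase 2.

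Regulators were also among the genes called lower. PP2C32 (LOC_Os03g18150), a protein phosphatase of the PP2C family, had 71.7, 75.7 and 59.3 CPM in OE1 against 156, 188 and 171 CPM in WT, and 66.95, 66.8 and 70.7 CPM in C54 against 50.8, 48.6 and 44.1 CPM in NIP. Its contrast was -1.82 (SE 0.18, edgeR adjusted p = 0.00179), and most of it lay in the OE1 arm (-1.32 in the OE1 arm and 0.51 in the C54 arm). An F-box gene (LOC_Os01g59690), of the proteins that choose targets for ubiquitin ligases, had 80.1, 73.1 and 64.6 CPM in OE1 against 170, 177 and 166 CPM in WT, and 80.4, 85.5 and 73.2 CPM in C54 against 59.2, 55.3 and 62.9 CPM in NIP, with a contrast of -1.67 (SE 0.17, edgeR adjusted p = 0.00189). A gene similar to Transformer-2, a splicing regulator in Drosophila (LOC_Os03g15890), had 17.8, 14.7 and 8.91 CPM in OE1 against 57.7, 40.7 and 43.3 CPM in WT, and 27.95, 17 and 25.7 CPM in C54 against 6.88, 6.94 and 8.69 CPM in NIP. Its contrast was -3.43 (SE 0.38, edgeR adjusted p = 0.00233), shared between -1.77 in the OE1 arm and 1.65 in the C54 arm. The CCCH zinc finger gene LOC_Os01g61830 and the glycosyltransferase family 17 gene LOC_Os02g38140 had contrasts of -2.38 (edgeR adjusted p = 0.00233) and -2.195 (0.00189), also with no overlap in either arm.

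The largest negative contrasts involved levels that were low in NIP. A carbonic anhydrase gene (LOC_Os08g32750), of the enzymes that convert CO2 and bicarbonate, had 4.73, 5.86 and 4.15 CPM in OE1 against 47.02, 32.2 and 30.7 CPM in WT, and 9.42, 4.44 and 17.6 CPM in C54 against 0, 0.304 and 0.616 CPM in NIP. It was lowest in NIP and highest in WT, and the contrast was -8.03 (SE 0.92, edgeR adjusted p = 0.00233), with -2.90 in the OE1 arm and 5.13 in the C54 arm. WRKY24 (LOC_Os01g61080), a transcription factor known in rice for repressing hormone responses in seed cells, had 50.04, 58.3 and 60.3 CPM in OE1 against 280, 521 and 366 CPM in WT, and 36.6, 27.1 and 32.95 CPM in C54 against 11.98, 19.8 and 7.18 CPM in NIP. WT exceeded the other 3 groups in each library, and the contrast was -4.10 (SE 0.47, edgeR adjusted p = 0.00233), with -2.79 in the OE1 arm and 1.31 in the C54 arm. A plastocyanin-like domain gene (LOC_Os08g37660) had 10.5, 8.26 and 15.7 CPM in OE1 against 163, 297 and 222 CPM in WT, and 19.3, 10.2 and 11.9 CPM in C54 against 7.32, 5.30 and 1.23 CPM in NIP, and its contrast was -5.87 (SE 0.73, edgeR adjusted p = 0.00291). The gene similar to CYP94C20 (LOC_Os12g05440), a P450 whose Arabidopsis relatives oxidise jasmonoyl-isoleucine, had 3.35, 1.55 and 1.59 CPM in OE1 against 5.67, 25.4 and 6.42 CPM in WT, and 3.19, 2.65 and 3.29 CPM in C54 against 0.554, 0.852 and 0.958 CPM in NIP. WT-2 was far above the other WT libraries there, and the contrast was -4.48 (SE 0.81, edgeR adjusted p = 0.0147). All genes named for the smallest p or the largest size in the negative direction were called in each of the 12 fits that left out 1 library.

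The lists below were defined by words in the annotation and are described by counts and medians, beside a median contrast of 1.73 over the 2800 genes with a paired locus and 0.04 over all 21878. They hold only loci that the study had listed as changed on these libraries, which bears on the sign of the contrast. No list stands for all genes of its kind. Each count is to be read beside the 21.3% called higher and 10.4% called lower among those 2800 genes. Of 33 loci in the list of ABA signalling and dehydration, 8 were called higher (24.2%) and 5 lower (15.2%), with a median contrast of 1.12. Both shares are near those of the 2800 genes, and the median lies below theirs. The higher ones included LEA1, described above, a pair of genes similar to ABA responsive element binding factors (LOC_Os02g52780, contrast 1.87, and LOC_Os06g10880, contrast 1.98), and 3 PP2C genes, PP2C9 (LOC_Os01g62760, 2.24) among them. All 5 lower ones were PP2C genes, with PP2C32 above. PP2C genes entered this list by the words of their annotation. Which of them, in either direction, belong to the phosphatases that ABA receptors inhibit was not examined. PP2C61 (LOC_Os07g02330) had 9.57, 15.3 and 15.8 CPM in OE1 against 20.7, 30.4 and 25.4 CPM in WT, and 8.22, 8.28 and 12.6 CPM in C54 against 3.11, 3.47 and 3.35 CPM in NIP, and its contrast was -2.46 (SE 0.34, edgeR adjusted p = 0.00466). The dehydration gene Rab21 (LOC_Os11g26790) had a contrast of 0.57 and was not called. The list did not follow the pattern by library of the wall genes, since its median level was 0.75, 0.67 and 0.68 log2 units above the 12-library mean in OE1. Over the fits without 1 library, 4 (without NIP-2) to 12 (without NIP-3) of its loci were called higher and 4 (without WT-2, C54-1 or C54-3) to 8 (without NIP-3) lower.

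Of 38 heat shock and chaperone loci, 14 were called lower (36.8%) and 7 higher (18.4%), and the median contrast was -1.495. The lower ones held Hsp82, 4 DnaJ-type genes and a pair of chaperonins, which fold proteins in ring-shaped complexes. A chaperonin gene (LOC_Os07g44740) had 6.60, 8.58 and 7.79 CPM in OE1 against 21.5, 15.6 and 18.1 CPM in WT, and 12.7, 10.1 and 12.3 CPM in C54 against 6.21, 7.12 and 5.68 CPM in NIP, with a contrast of -2.14 (SE 0.25, edgeR adjusted p = 0.00249). A gene similar to the stress inducible co-chaperone STI (LOC_Os02g43020) had 7.37, 8.74 and 5.02 CPM in OE1 against 19.3, 15.6 and 18.2 CPM in WT, and 15.2, 10.3 and 14.3 CPM in C54 against 2.83, 3.10 and 5.20 CPM in NIP. Its contrast was -3.17 (SE 0.39, edgeR adjusted p = 0.00270), and in both genes all libraries were separated. Heat stress factors were called in both directions. B-2a (LOC_Os04g48030, -6.03), A-2c (LOC_Os10g28340, -1.93) and A-4d (LOC_Os05g45410, -1.43) were lower, and C-2a (LOC_Os02g13800, 1.93) and C-1a (LOC_Os01g43590, 3.76) were higher. The count of lower loci ranged between 8 (without C54-1) and 16 (without OE1-2 or NIP-3) over the fits without 1 library, and that of higher loci between 2 (without any of 7 libraries) and 11 (without NIP-3).

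Of the 17 lists taken from annotation, the ribosomal proteins had the largest share called higher. Of 30 loci, 25 were called higher (83.3%) and none lower, and all 30 had a contrast over 0, with a median of 1.60. The study had listed these loci as changed on these same libraries, which bears on their shared sign, so the counts are a description. By their annotation most encode 30S and 50S subunits of the chloroplast ribosome, which translates the plastid's own genes. The median of the arms was 0.44 in OE1 over WT and -1.31 in C54 over NIP, so the values in Nipponbare held the larger part. The gene for 30S protein S6 alpha (LOC_Os03g62630) had 134, 107 and 137 CPM in OE1 against 118, 99.04 and 104 CPM in WT, and 68.6, 88.04 and 66.8 CPM in C54 against 175, 208 and 140 CPM in NIP. OE1 and WT overlapped while C54 and NIP did not, and the contrast was 1.47 (SE 0.25, edgeR adjusted p = 0.0115). S9 (LOC_Os03g55930) had 122, 95 and 127 CPM in OE1 against 74.4, 71.1 and 64.3 CPM in WT, and 35.02, 51 and 37.8 CPM in C54 against 114, 141 and 65.3 CPM in NIP, with a contrast of 2.09 (SE 0.36, edgeR adjusted p = 0.0118). S10 (LOC_Os03g10060) had 104, 96.4 and 117 CPM in OE1 against 56.5, 70.3 and 58.8 CPM in WT, and 52.7, 61.4 and 39.2 CPM in C54 against 101, 139 and 73.6 CPM in NIP, with a contrast of 1.81 (SE 0.32, edgeR adjusted p = 0.0144). Over the fits without 1 library 5 (without WT-2, C54-1 or C54-3) to 29 (without NIP-3) of the 30 were called higher.

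Of 21 loci for photosynthesis and chlorophyll, 12 were called higher and none lower, with a median contrast of 2.26. A chlorophyll a-b binding protein gene (LOC_Os06g21590), of the antenna that gathers light, had 798, 457 and 997 CPM in OE1 against 347, 317 and 295 CPM in WT, and 1203, 1896 and 1125 CPM in C54 against 1986, 3090 and 2068 CPM in NIP. The libraries did not overlap in either arm, and C54 and NIP stood above OE1 and WT. Its contrast was 1.99 (SE 0.43, edgeR adjusted p = 0.0279), and the call was lost without WT-1, WT-2, WT-3, OE1-1, OE1-3, NIP-2, C54-1 or C54-3 (edgeR adjusted p up to 0.0852). PSB27-H2 (LOC_Os03g53640), a protein of photosystem II assembly, had 50.7, 46.5 and 57.9 CPM in OE1 against 34.7, 42.4 and 39.7 CPM in WT, and 19.1, 31.8 and 19.1 CPM in C54 against 55.3, 57.2 and 42.96 CPM in NIP, with a contrast of 1.56 (SE 0.29, edgeR adjusted p = 0.0164). The call was lost without C54-3 alone, at an edgeR adjusted p of 0.0502. Between 0 (without C54-3) and 18 (without NIP-3) of the loci were called higher over the fits without 1 library.

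The cell wall lists had the largest median contrasts of the 17 lists. In secondary wall and lignin synthesis 5 of 38 loci (13.2%) were called higher and none lower, at a median contrast of 6.47. In wall loosening and pectin the count was 13 of 40 higher (32.5%) and none lower, at a median of 8.12, or 6.81 when groups with no count are set to 3 counts. At an unadjusted p under 0.05 in edgeR 2 and 1 loci of these lists were lower, and DESeq2 called 0 and 1. For the ribosomal, photosynthesis and sugar lists, with 0 loci called lower by edgeR, the count was also 0 at an unadjusted p under 0.05 and in DESeq2. The spread within groups was wide in the wall lists. Expansin-A2 (LOC_Os01g60770), a protein that loosens the wall for growth, had 27.1, 2.29 and 71.3 CPM in OE1 against 0.340, 0.124 and 0.348 CPM in WT, and 7.38, 39.2 and 8.73 CPM in C54 against 144, 50.8 and 6.29 CPM in NIP. OE1-2 was far below the other OE1 libraries and NIP-3 was below the C54 libraries, and the contrast was 8.80 (SE 2.01, edgeR adjusted p = 0.0329). Expansin-B3 (LOC_Os10g40720) showed the same order, with 49.6, 3.68 and 164 CPM in OE1 against 1.13, 0.249 and 0.0996 CPM in WT, and 29.3, 111 and 16.96 CPM in C54 against 210, 105 and 15.4 CPM in NIP and a contrast of 8.59 (SE 2.05, edgeR adjusted p = 0.0370). Laccase-12 (LOC_Os05g38420), of the enzymes that couple lignin units, had 3.02, 0.213 and 10.4 CPM in OE1 against 0.227, 0 and 0 CPM in WT, and 0.209, 0 and 0 CPM in C54 against 26.3, 0.0609 and 0.547 CPM in NIP. WT held 2 counts in all, and OE1 over WT was 104-fold with a 95% counting interval of 28.6 to 866. This interval covers counting error only. OE1-2 lay below WT-1, and the OE1 arm had an edgeR adjusted p of 0.135. The contrast of laccase-12 was 13.20 (SE 3.29, edgeR adjusted p = 0.0414). The calls of both expansins were kept only in the fits without OE1-2, NIP-3 or C54-2 (edgeR adjusted p up to 0.103 in the other fits), and that of laccase-12 only without OE1-2, NIP-2 or NIP-3 (up to 0.113). Both lists had 0 loci called higher without WT-2, WT-3, OE1-1, C54-1 or C54-3, the secondary wall list also without OE1-3 or NIP-1, and they reached 30 (without NIP-3) and 27 (without OE1-2 or NIP-3).

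**Figure D4:**
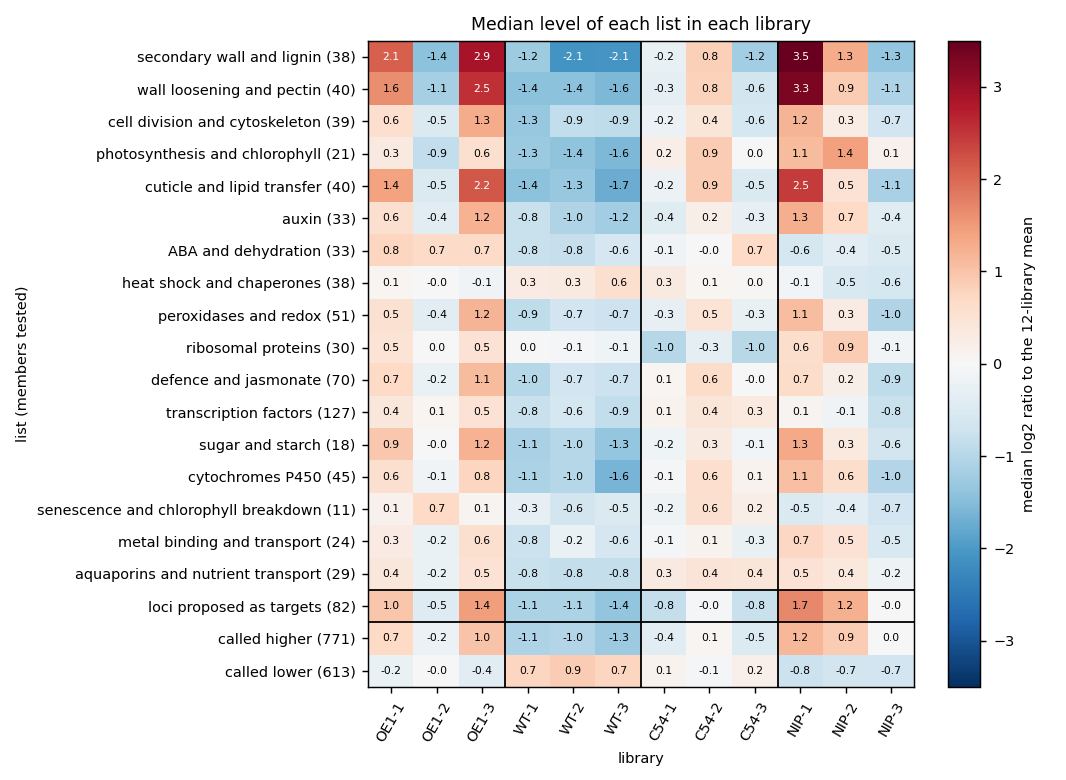
Median log2 level of each list (rows, with members tested) in each of the 12 libraries (columns), relative to the mean over the libraries, in colour. The wall and cuticle lists are high in OE1-1, OE1-3 and NIP-1 (2.09, 2.89 and 3.47 for secondary wall) and low in OE1-2 and NIP-3 (-1.43 and -1.34), while the ABA list is alike in the 3 OE1 libraries.

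Growth and surface lists followed the same libraries. In cuticle and lipid transfer, which covers cutin, wax and the proteins that carry lipids, 12 of 40 loci were called higher and 1 lower (median contrast 5.06). The list's median level was 1.40, -0.50 and 2.17 in OE1 and 2.45, 0.52 and -1.14 in NIP on the log2 scale relative to the 12-library mean. LTPL66 (LOC_Os03g20760), a lipid transfer protein, had 2.42, 2.18 and 5.94 CPM in OE1 against 0.680, 0.994 and 0.896 CPM in WT, and 0.681, 0.325 and 0.567 CPM in C54 against 2.55, 1.28 and 2.26 CPM in NIP. All libraries were separated, and the contrast was 3.95 (SE 0.68, edgeR adjusted p = 0.0116). A GDSL lipase gene (LOC_Os03g38350) was the one called lower, at -2.61 (edgeR adjusted p = 0.0267). In the auxin list 7 of 33 loci were called higher (21.2%, close to the 21.3% of all genes with a paired locus) and 1 lower (median 2.46). OsYUCCA6 (LOC_Os07g25540), a flavin monooxygenase of auxin synthesis, had 1.92, 0.213 and 1.74 CPM in OE1 against 0.113, 0 and 0.0498 CPM in WT, and 0.995, 0.596 and 0.340 CPM in C54 against 2.16, 2.13 and 1.64 CPM in NIP, with a contrast of 6.22 (SE 1.23, edgeR adjusted p = 0.0194). OsSAUR11 (LOC_Os02g42990), a small auxin-responsive gene, had 5.17, 6.71 and 6.40 CPM in OE1 against 2.61, 2.67 and 1.34 CPM in WT, and 1.99, 3.47 and 3.29 CPM in C54 against 10.98, 7.55 and 4.45 CPM in NIP. Its contrast was 2.87 (SE 0.53, edgeR adjusted p = 0.0155) and held in all 12 fits. In cell division and cytoskeleton 6 of 39 were called higher and 3 lower (median 2.65). A DNA polymerase I gene (LOC_Os01g65400) was among the higher (2.29), and histone genes for H2A.5 (LOC_Os03g17100, -1.47) and H3 (LOC_Os01g64640, -1.92) among the lower. The calls of the lipase and both histone genes were lost without WT-1, WT-2, OE1-1, OE1-3, NIP-2, C54-1 or C54-3, those of the histones also without WT-3 (edgeR adjusted p up to 0.0907). That of the polymerase was lost without C54-1 or C54-3 (up to 0.0526), and that of OsYUCCA6 without WT-2, WT-3, OE1-1 or C54-3 (up to 0.0613). Without NIP-3 these lists had 27, 21 and 19 loci called higher. The lowest counts were 1 for cuticle (without C54-1 or C54-3), 2 for auxin (without WT-2, OE1-1 or C54-3) and 0 for cell division (without C54-1 or C54-3).

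Redox genes were called in both directions, with 11 of 51 higher (21.6%) and 6 lower (11.8%), at a median contrast of 2.21. These shares lie close to the 21.3% and 10.4% of all genes with a paired locus. A chloroplast Cu-Zn superoxide dismutase gene (LOC_Os08g44770), whose enzyme turns superoxide into peroxide, had 156, 95 and 198 CPM in OE1 against 58.8, 66.4 and 78.8 CPM in WT, and 79.8, 110 and 75.03 CPM in C54 against 229, 266 and 178 CPM in NIP. The libraries did not overlap in either arm, and the contrast was 2.48 (SE 0.38, edgeR adjusted p = 0.00634). A glutathione S-transferase gene (LOC_Os05g34150) had 2.47, 2.56 and 1.95 CPM in OE1 against 2.72, 2.80 and 5.82 CPM in WT, and 10.6, 13.1 and 15.2 CPM in C54 against 2.83, 4.38 and 4.38 CPM in NIP. Its contrast of -2.46 (SE 0.45, edgeR adjusted p = 0.0152) lay mainly in the C54 arm (-0.71 in the OE1 arm and 1.75 in the C54 arm). In defence and jasmonate 11 of 70 loci were called higher and 13 lower (median 1.76), the chitinases above among the lower. Over the fits without 1 library the redox list ran between 1 (without C54-1 or C54-3) and 28 (without NIP-3) higher, and the defence list between 1 (without WT-1, WT-3, OE1-1, C54-1 or C54-3) and 27 (without NIP-3). The lower counts ran between 2 (without WT-1, WT-2, C54-1 or C54-3) and 7 (without NIP-3) in the redox list, and between 3 (without C54-1) and 15 (without OE1-2) in the defence list.

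Of 127 transcription factor loci 19 were called higher and 19 lower (median 1.01), against 40 and 21 in DESeq2. OsMYB2 (LOC_Os03g20090), known in rice for tolerance of salt, cold and dehydration, had 6.71, 6.18 and 5.69 CPM in OE1 against 24.8, 53.3 and 29.5 CPM in WT, and 9.63, 11.7 and 12.9 CPM in C54 against 3.99, 5.78 and 2.60 CPM in NIP. It was lower in OE1 than in WT and higher in C54 than in NIP, and its contrast was -3.998 (SE 0.46, edgeR adjusted p = 0.00233). The counts over the fits without 1 library ran between 6 (without WT-2) and 41 (without NIP-3) higher and between 8 (without C54-3) and 20 (without NIP-3) lower.

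Sugar and starch metabolism had 8 of 18 loci called higher and none lower (median 2.51). A fructosyltransferase gene (LOC_Os02g01590) had 162, 182 and 198 CPM in OE1 against 8.95, 15.6 and 13.9 CPM in WT, and 261, 265 and 353 CPM in C54 against 66.5, 79.9 and 53.8 CPM in NIP. It rose in both arms, by 3.80 in OE1 over WT and by 2.14 in C54 over NIP on the log2 scale, and its contrast of 1.67 (SE 0.31, edgeR adjusted p = 0.0156) measures the difference between these rises. A sugar transporter gene (LOC_Os03g10090) had 89.2, 43.3 and 118 CPM in OE1 against 46.3, 48.03 and 36.2 CPM in WT, and 95.4, 158 and 100 CPM in C54 against 313, 338 and 241 CPM in NIP, with a contrast of 2.27 (SE 0.46, edgeR adjusted p = 0.0216), lost without WT-1, WT-2, WT-3, OE1-1, C54-1 or C54-3 (edgeR adjusted p up to 0.0682). The list ran between 1 (without WT-2, WT-3, C54-1 or C54-3) and 12 (without NIP-3) loci higher.

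Cytochromes P450, which oxidise hormones and secondary metabolites, had 8 of 45 called higher and 1 lower (median 2.33). CYP93G2 (LOC_Os06g01250), the flavanone 2-hydroxylase of C-glycosylflavone synthesis, had 117, 90.4 and 131 CPM in OE1 against 42.3, 43.5 and 20.8 CPM in WT, and 83.02, 94.9 and 91.98 CPM in C54 against 133, 183 and 151 CPM in NIP. Its contrast was 2.46 (SE 0.36, edgeR adjusted p = 0.00570), and it was called in all 12 fits. Metal binding and transport had 4 of 24 called higher and 4 lower (median 1.45), against 9 and 5 in DESeq2, and a heavy metal domain gene (LOC_Os04g39350) was lower at -2.76 (edgeR adjusted p = 0.00249). Aquaporins and nutrient transport had 9 of 29 higher and 3 lower (median 1.28).

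The aquaporin PIP1-1 (LOC_Os02g44630), a water channel of the plasma membrane, had 828, 752 and 494 CPM in OE1 against 1045, 973 and 903 CPM in WT, and 1569, 1233 and 2214 CPM in C54 against 501, 581 and 710 CPM in NIP. Its contrast was -1.98 (SE 0.36, edgeR adjusted p = 0.0147). The phosphate transporter gene PHT1-8 (LOC_Os10g30790) had 63.01, 90.5 and 93.9 CPM in OE1 against 163, 159 and 135 CPM in WT, and 179, 136 and 199 CPM in C54 against 79.95, 87.8 and 86.2 CPM in NIP, with a contrast of -1.90 (SE 0.26, edgeR adjusted p = 0.00440). Both were lower in OE1 than in WT and higher in C54 than in NIP with no overlap. In the senescence list 2 of 11 loci were called higher and 1 lower (median -0.36). The lower one, for red chlorophyll catabolite reductase of chlorophyll breakdown (LOC_Os10g25030), had 19.5, 38.2 and 14.2 CPM in OE1 against 18.01, 22.7 and 16.9 CPM in WT, and 26.02, 39.2 and 36.6 CPM in C54 against 5.93, 7.43 and 4.72 CPM in NIP. Its contrast of -2.17 (SE 0.47, edgeR adjusted p = 0.0268) lay in the C54 arm (0.32 in the OE1 arm and 2.49 in the C54 arm) and was lost without WT-1, WT-2, WT-3, OE1-1, NIP-1 or C54-3 (edgeR adjusted p up to 0.0734). Without NIP-3 the P450, metal, transport and senescence lists had 22, 9, 14 and 3 loci called higher, and their lowest counts were 1, 0, 1 and 0. Each of these 4 lowest counts was reached without WT-1, C54-1 or C54-3, among other libraries. The count of metal loci called lower ran between 1 (without WT-2) and 5 (without OE1-2 or NIP-3).

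**Figure D5:**
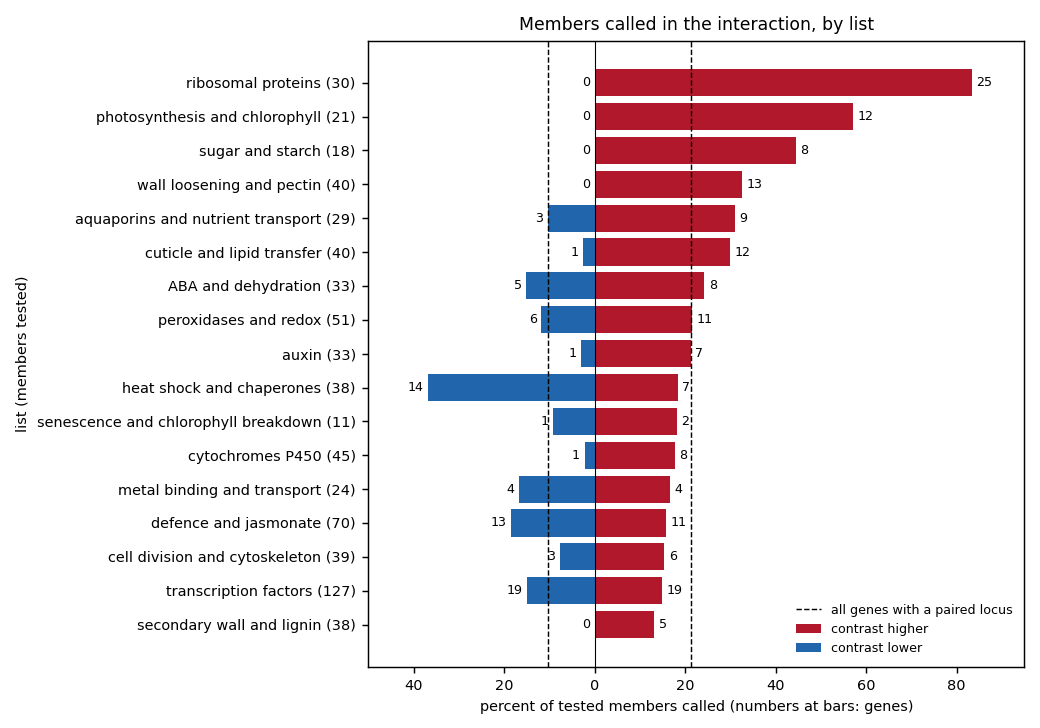
Percent of tested members of each list called higher and lower in the interaction (horizontal, with the number of genes at each bar), beside dashed lines for all genes with a paired locus (21.3% higher, 10.4% lower). Over all genes tested, which are not drawn, the shares were 3.52% and 2.80%. Ribosomal proteins stand at 83.3% higher, and heat shock and chaperones at 36.8% lower.

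The genes that the study followed by qPCR or yeast one-hybrid assay divided in the interaction. Of 13 that could be tested, 8 were called higher, 5 were not called and none was called lower. Over all genes with a paired locus 21.3% were called higher and 10.4% lower, and over all genes tested 3.52% and 2.80%. Each gene called higher, apart from OsNAC10 (LOC_Os11g03300), was also listed by the study as raised in OsbZIP62V plants and lowered in osbzip62 mutants. That list was made on these libraries and fixed the sign of their contrast, so the counts are a description. A DREB2B-like gene (LOC_Os02g43940), of the factors that bind dehydration responsive elements, had 11.3, 9.80 and 13.8 CPM in OE1 against 3.97, 2.30 and 2.24 CPM in WT, and 1.62, 1.57 and 1.59 CPM in C54 against 7.43, 6.21 and 2.46 CPM in NIP. Its contrast was 3.81 (SE 0.53, edgeR adjusted p = 0.00475), with all libraries separated, although NIP-3 lay close to C54. OsPIN1 (LOC_Os02g50960), the auxin efflux carrier, had 102, 55.7 and 129 CPM in OE1 against 41.01, 40.7 and 35.5 CPM in WT, and 59.8, 95.4 and 67.7 CPM in C54 against 222, 257 and 123 CPM in NIP, with a contrast of 2.72 (SE 0.46, edgeR adjusted p = 0.0115). These 2 of the 8 were called in all 12 fits. By qPCR the study reports the DREB2B-like gene, LOC_Os05g49420, OsNAC10 and DSM2 (LOC_Os03g03370) as higher in OsbZIP62V and lower in osbzip62. In these libraries the DREB2B-like gene kept that order. LOC_Os05g49420, OsNAC10 and DSM2 were higher in C54 than in NIP, by 0.70, 2.24 and 1.21 on the log2 scale (edgeR adjusted p = 0.03155, 0.01355 and 0.04918). Why the measures differ was not tested.

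Some of the other genes called higher encode chloroplast proteins. PSB27 (LOC_Os03g21560), which takes part in the repair of photosystem II, had 64.3, 36.7 and 76.3 CPM in OE1 against 25.8, 35.9 and 23.9 CPM in WT, and 115, 149 and 113 CPM in C54 against 224, 413 and 240 CPM in NIP. OE1-2 lay just above WT-2, and the contrast was 2.26 (SE 0.43, edgeR adjusted p = 0.0168). The peroxiredoxin gene LOC_Os02g09940, whose product reduces peroxides, had 73.5, 25.2 and 65.1 CPM in OE1 against 26.5, 25.4 and 19.96 CPM in WT, and 34.7, 58.9 and 34.8 CPM in C54 against 156, 207 and 93.6 CPM in NIP. OE1-2 lay among the WT libraries there, and the contrast was 3.02 (SE 0.57, edgeR adjusted p = 0.0163). The calls of both were lost without C54-1 or C54-3, at an edgeR adjusted p up to 0.0554. A gene for an inactive heme oxygenase (LOC_Os03g27770) had 12.98, 6.02 and 23 CPM in OE1 against 4.08, 4.23 and 4.78 CPM in WT, and 5.86, 10.3 and 4.14 CPM in C54 against 36.9, 41.4 and 7.66 CPM in NIP. Its contrast of 3.76 (SE 0.87, edgeR adjusted p = 0.0338) was kept in only 3 of the 12 fits, those without OE1-2, NIP-3 or C54-2.

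Others of these genes depended on few libraries. OsIAA31 (LOC_Os12g40900), an auxin response repressor, had 13.3, 2.13 and 16.9 CPM in OE1 against 1.02, 0.684 and 0.348 CPM in WT, and 1.15, 5.04 and 0.964 CPM in C54 against 19.4, 24.04 and 3.22 CPM in NIP, with a contrast of 6.75 (SE 1.38, edgeR adjusted p = 0.0219) that was lost without WT-2, WT-3, OE1-1, C54-1 or C54-3 (edgeR adjusted p up to 0.0690). The CER1-like gene OsGL1 (LOC_Os02g56920), related to Arabidopsis genes of wax alkane synthesis, had 30.5, 0.213 and 166 CPM in OE1 against 0.227, 0.0621 and 0 CPM in WT, and 0, 0 and 0.0567 CPM in C54 against 147, 0.244 and 0 CPM in NIP. The high values came from OE1-1, OE1-3 and NIP-1 alone. WT held 3 counts and C54 1 count in all. OE1 over WT was 1007-fold with a 95% counting interval of 344 to 4886, and C54 over NIP was 0.000335 with an interval of 8.48e-06 to 0.00187. These intervals cover counting error only. The fitted contrast was 20.67 (SE 4.82, edgeR adjusted p = 0.0348), and it was kept in only 3 of the 12 fits, those without OE1-2, NIP-2 or NIP-3. OsNAC10 (LOC_Os11g03300), a NAC factor of drought tolerance, had 47.3, 52.6 and 66.2 CPM in OE1 against 3.17, 2.30 and 3.14 CPM in WT, and 21.2, 35.1 and 35.4 CPM in C54 against 9.76, 6.82 and 2.74 CPM in NIP. It rose in both arms (4.27 in the OE1 arm and 2.24 in the C54 arm), so its contrast of 2.03 (SE 0.53, edgeR adjusted p = 0.0468) again measures a difference between rises, and it was kept only without OE1-2 or NIP-3.

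The 5 genes not called fell into 2 kinds. DSM2 (LOC_Os03g03370), a beta-carotene hydroxylase gene of the xanthophyll pathway that feeds ABA synthesis, had 41.4, 45.02 and 27.4 CPM in OE1 against 17.2, 21.2 and 19.1 CPM in WT, and 34.6, 27.6 and 56.4 CPM in C54 against 12.4, 16.7 and 22.2 CPM in NIP. It was higher in OE1 than in WT and higher in C54 than in NIP in each library, the contrast was -0.22 (SE 0.41, edgeR adjusted p = 0.784), and a contrast of this size with this error leaves room for a difference in either direction. The gene similar to G-box binding factor 1 (LOC_Os05g49420), itself a bZIP factor, had 131, 138 and 153 CPM in OE1 against 61.1, 58.03 and 79.04 CPM in WT, and 86.7, 85.7 and 109 CPM in C54 against 60.4, 59.5 and 52.5 CPM in NIP, with a contrast of 0.39 (SE 0.21, edgeR adjusted p = 0.280). The other 3 had large contrasts with large errors. The class III peroxidase gene LOC_Os07g01370 had 3.85, 0 and 7.84 CPM in OE1 against 0 CPM in each of the libraries of WT, and 0, 0.812 and 0.0567 CPM in C54 against 24.5, 0.0609 and 0 CPM in NIP, and its contrast was 13.86 (SE 4.60, edgeR adjusted p = 0.0920). WT was at 0, so the pooled OE1 counts were at least 59.2-fold higher, allowing WT 3 counts over the group. This bound leaves out the spread between libraries. OE1-2 was also at 0, and the OE1 arm had an edgeR adjusted p of 0.196. The lipid transfer protein gene LOC_Os11g02350 had 1.81, 0.320 and 29.97 CPM in OE1 against 0 CPM in each of the libraries of WT, and 0, 0.0541 and 0 CPM in C54 against 65.5, 0.0609 and 0 CPM in NIP, and its contrast was 20.28 (SE 5.48, edgeR adjusted p = 0.0567). Here the pooled OE1 counts were at least 166-fold higher than WT on the same allowance and with the same limit. The OE1 arm of this gene had an edgeR adjusted p of 0.1655. The study's one-hybrid assay does not list its promoter among those bound. OsSWN2 (LOC_Os08g02300), a NAC factor of secondary wall formation, had 2.42, 0.107 and 3.64 CPM in OE1 against 0.453, 0.124 and 0 CPM in WT, and 0.105, 0.975 and 0.567 CPM in C54 against 3.66, 1.64 and 1.37 CPM in NIP, with a contrast of 5.69 (SE 1.71, edgeR adjusted p = 0.0641). In all 3 OE1-2 was the lowest OE1 library. The gene for OsSAUR58 (LOC_Os12g43110) had too few counts to be tested, with 9, 0 and 19 counts in OE1, 0 in each WT library, 0 in each C54 library and 11, 7 and 0 in NIP.

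The study also listed loci that it had found raised in OsbZIP62V plants and lowered in osbzip62 mutants. That choice was made on these libraries and fixes the sign of the contrast, so the values are a description. Of 82 such loci tested, all had a contrast over 0, the median was 4.02 with 2.19 in the OE1 arm and -1.78 in the C54 arm, and 67 were called higher. DESeq2 called 79 of them, and without OE1-2 and NIP-3 all 82 were called. The count ran between 13 (without C54-1) and 81 (without NIP-3) over the fits without 1 library. Their median level was 0.98, -0.45 and 1.45 in OE1 against -1.11, -1.12 and -1.37 in WT, and -0.84, -0.04 and -0.77 in C54 against 1.68, 1.24 and 0.00 in NIP, in log2 units relative to the 12-library mean. NIP-3 thus lay at the level of C54-2 for these loci.

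Near the threshold the calls separate genes that differ little. The last gene called higher was LOC_Os10g35050, with a log2 contrast of 7.83, SE 2.00 and an edgeR adjusted p of 0.04995, and the first one past it was LOC_Os06g47820, at 10.08, SE 2.58 and 0.05011. In the lower direction these were LOC_Os05g16420, at -2.06, SE 0.56 and 0.04979, and LOC_Os02g01880, at -1.22, SE 0.33 and 0.05011. The fold minimum removed few genes, since 843 higher and 710 lower genes passed the adjusted p alone. Cellulose synthase-like D2 (LOC_Os06g02180) was one that it removed, with 14.96, 16.6 and 15.4 CPM in OE1 against 37.3, 35.7 and 35.8 CPM in WT, and 14.9, 17.4 and 16.1 CPM in C54 against 23.5, 18.6 and 16.3 CPM in NIP and a contrast of -0.94 (SE 0.20, edgeR adjusted p = 0.0272).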

How the data were processed

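RNA from rice leaves was sequenced in 12 libraries of 4 groups, 3 biological replicates of 30 plants each, grouped by the labels. The authors made TruSeq v2 libraries, which do not mark the strand, so overlapping and antisense genes cannot be separated. SeqPrep removed adaptors, Sickle filtered reads by quality, and HISAT2 2.1.0 aligned them. Further names in the submitters' processing notes are the build IRGSP-1.0, HTSeq 0.6.1p2 and Bowtie2 2.2.3. The annotation release and how reads that match several genes were counted are not given in the sources used here, so values of near-identical paralogs are uncertain. The authors deposited raw read counts per gene, which were used for each test, and RPKM values computed from those counts, which served only to pair identifiers. Columns of the authors' own comparisons were not used as values.

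Deposited identifiers were paired with the loci of the study's lists of changed genes through the fold changes printed there, reproduced from the counts within a relative difference of 6e-06, for identity only (2892 loci). Counts were scaled by TMM, filtered with edgeR's filterByExpr by group, and fitted in edgeR 4.0.16 (R 4.3.3) with 4 group means. The contrast was tested with the quasi-likelihood test and Benjamini-Hochberg adjustment over all genes tested, and called at an adjusted p under 0.05 and an absolute log2 contrast over 1. Standard errors were derived from the estimate and its F statistic. The script was tested on simulated data. Library totals of 9224755 to 19759728 counts set the precision. P-values measure the spread between replicates of 1 line per construct.

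Named genes were OsbZIP62, the 10 smallest p and the 6 largest contrasts without overlap per direction among called genes with an annotated function (the latter at 5 CPM or more in a group), the loci the study followed by qPCR or one-hybrid assay, the 3 smallest p per list and at most 2 unpaired identifiers per direction. Where the text names further members of a list, they were chosen after their values were seen. The members, the lists and the rule were chosen with earlier results of these data known. Alternatives were DESeq2 1.42.0, other size factors and filters, limma 3.58.1 voom with quality weights, a replicate block, no fold minimum, and leaving out libraries. Python 3.11.15 and matplotlib 3.10.9 drew the figures.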

Additional observations from a re-analysis of the deposited data

How the results depend on the processing

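With RLE or upper-quartile factors, no filter on low counts, a minimum of 1 CPM in 6 libraries, or no fold minimum, the counts stayed within 1.5 times those of the main fit, at 748 to 843 genes higher and 561 to 710 lower against 771 and 613. Other tools and libraries moved them. DESeq2 called 2097 higher and 971 lower, and limma voom with quality weights 1162 and 1052. Without OE1-2 and NIP-3 the counts were 3291 and 1235. When 1 library was left out they ranged between 130 and 2382 higher and between 209 and 1010 lower, and those fits assume that a pair of libraries varies like the other groups. The cause was not tested.

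The replicate numbers did not pair the libraries, since correlations of the deviations of same-numbered libraries ran from -0.716 to 0.375. A replicate block gave 181 genes higher and 275 lower. Not every library correlated best with its own number. The largest positive correlations joined OE1-3 with NIP-1 (0.724) and OE1-2 with NIP-3 (0.703), and the most negative joined OE1-2 with NIP-1 (-0.735). OE1 and NIP enter the contrast with the same sign. The source of this shared variation was not tested.

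Of 86 named genes, 80 were called. All 80 were called by DESeq2 and without OE1-2 and NIP-3. Both of these settings called more genes than the main fit, so they put the named calls to little test. In each of the 12 fits without 1 library 49 were called. The block cost 17 calls, voom with quality weights 9, and the minimum of 1 CPM in 6 libraries 6. The costliest single library was C54-3, without which 30 calls were lost. No named gene that was called changed direction under the alternatives. The median contrast of all genes was 0.04 in the main fit, 0.09 in DESeq2 and -0.01 with upper-quartile factors. Depth limits genes with a group near 0 counts, whose contrasts depend on the prior count.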

Other observations

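Genes with the smallest p that had no paired locus appear by their identifier alone. OS07G0680600 had 32.2, 31.0 and 28.0 CPM in OE1 against 196.9, 256.2 and 211.0 CPM in WT, and 21.0, 19.2 and 17.2 CPM in C54 against 17.3, 12.7 and 13.7 CPM in NIP. Its contrast of -3.26 (SE 0.22, edgeR adjusted p = 0.000306) lay almost wholly in the OE1 arm. OS02G0202200 had 0.715, 0.799 and 1.08 CPM in OE1 against 9.40, 14.4 and 13.4 CPM in WT, and 6.02, 5.96 and 7.09 CPM in C54 against 9.15, 6.21 and 6.50 CPM in NIP, with a contrast of -3.64 (SE 0.35, edgeR adjusted p = 0.00178). In the other direction OS03G0807400 had 27.8, 26.8 and 25.6 CPM in OE1 against 18.6, 16.4 and 18.5 CPM in WT, and 17.1, 16.4 and 15.2 CPM in C54 against 27.9, 25.9 and 25.5 CPM in NIP. Its contrast was 1.29 (SE 0.16, edgeR adjusted p = 0.00285), and OE1 stood at the level of NIP and WT at that of C54. OS03G0342400 had a contrast of 4.25 (SE 0.57, edgeR adjusted p = 0.00427), with WT at 0.186 CPM or less in each library and C54 and NIP overlapping. All 4 were called in each of the 12 fits without 1 library.

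The called genes lay on all 12 chromosomes. The share called higher ran between 2.82% on chromosome 4 and 4.41% on chromosome 10, and the share called lower between 2.05% on chromosome 11 and 3.17% on chromosomes 5 and 7. A neighbouring tested gene, on either side, was called in the same direction for 97 of 771 higher genes (12.6%) and for 50 of 613 lower genes (8.16%). Among all genes tested 3.52% were called higher and 2.80% lower. The share expected with a neighbour on each side was not computed, so these values do not show clustering. The median gene length recovered from the deposited columns was 2295 bases for genes called higher and 2244 for genes called lower, against 3042 for all genes tested, and the median level was 9.50 and 15.9 CPM against 7.59 CPM.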
